A study of Mus musculus with 8 samples.

Results

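Transcripts of 40 genes of the ATF4 pathway and the unfolded protein response were followed in mouse embryos. They were chosen by name for their known roles from 38924 genes in the deposited matrix, with earlier results of these data known. RNA sequencing covered 8 libraries, each made from a pool of about 50 embryos of C57BL/6 females: 3 of the inner cell mass (ICM) of day 3.5 blastocysts, 3 of the ICM of diapaused blastocysts (dICM), and 2 of the epiblast (Epi) of day 6.5 embryos after implantation. Libraries are named by group and replicate, as in dICM 2. Diapause is a pause of the blastocyst that can be lifted again; tamoxifen and Depo Provera (0.5 mg) were given on day 3.5, and the diapaused blastocysts were collected 5 days later. For the ICM, the trophectoderm was removed with antibody and complement, a step the labels do not give for epiblast. Hormone treatment, embryo age and the arrest itself cannot be told apart in this design, and in pooled tissue fewer cells of a type and less RNA per cell cannot be told apart either. Levels are adjusted TPM, the authors' transcript abundance per gene length. Tests covered the 36 of 40 members that reached 1 in 2 or more libraries; Chac1, Vldlr, Eif2ak2 and Eif2ak4 did not.

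Proteins that enter the secretory pathway are folded in the endoplasmic reticulum (ER), and unfolded protein there activates the sensors PERK, IRE1 and ATF6. PERK phosphorylates the translation factor eIF2α, as do HRI, PKR and GCN2 in response to heme shortage or oxidative stress, double-stranded RNA and amino acid shortage. Phosphorylated eIF2α slows general translation but allows that of ATF4 and ATF5, so the mRNA level of Atf4 is not a measure of ATF4 protein. ATF4 drives genes of amino acid supply and stress regulators such as CHOP and TRIB3. ATF6 and the spliced form of XBP1, which IRE1 produces, drive ER chaperones and the machinery that returns misfolded proteins to the cytosol for degradation. The deposited values are per gene and do not separate spliced from unspliced Xbp1.

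Promoter sequences are shown because they carry different elements in the gene groups compared. RefSeq windows of 300 bases (build GRCm38.p6, 250 before and 50 after a start site) were found for 35 of the 40 members, with Ero1l under its present symbol Ero1a. Both strands were searched for the ER stress response element (ERSE: CCAAT, any 9 bases, CCACG), its shorter form ERSE-II (ATTGG, any base, CCACG), the unfolded protein response element UPRE (TGACGTGG) and the C/EBP-ATF response element bound by ATF4 (TGATGNAA). A gene with several start sites has several windows, and a match in any of them was counted for it. No 2 matches overlapped in a member's window. ERSE was present in 7 of 14 ER chaperones and foldases, in Syvn1, and in 0.119% of all 32817 windows. The C/EBP-ATF element was present in 4 of 10 ATF4-branch members, in Herpud1, and in 3.97% of all windows. The windows of the other ATF4-branch members, Atf4, Atf5, Ddit3, Cebpb, Cebpg and Ppp1r15a, held no match to it. ERSE-II was found in Dnajb11 and Herpud1 (0.0366% of all windows), and UPRE in none of the 35 members (0.676% of all windows). A match describes letters in a window and is no evidence of binding. ERSE stretches of 6 of the 8 members with the element follow, 5′ to 3′ on the gene's strand, with the match in capitals. Hsp90b1 held 2 matches, of which 1 is shown. A match that begins with CGTGG lies on the opposite strand.
Hspa5 (chr2:34772005-34772063, plus strand): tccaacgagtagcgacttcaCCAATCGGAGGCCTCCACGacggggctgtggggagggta
Hsp90b1 (chr10:86705513-86705571, minus strand): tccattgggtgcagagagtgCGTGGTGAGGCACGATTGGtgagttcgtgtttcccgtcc
Dnajc3 (chr14:118937807-118937865, plus strand): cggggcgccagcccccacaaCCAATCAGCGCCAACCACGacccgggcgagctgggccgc
Calr (chr8:84847055-84847113, minus strand): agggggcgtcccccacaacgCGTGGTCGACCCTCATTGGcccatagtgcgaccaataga
Canx (chr11:50325780-50325838, minus strand): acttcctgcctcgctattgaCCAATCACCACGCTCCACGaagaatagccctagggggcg
Syvn1 (chr19:6046512-6046570, plus strand): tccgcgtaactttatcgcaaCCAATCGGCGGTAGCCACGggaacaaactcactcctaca

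The C/EBP-ATF element of the ATF4-branch members is shown in the same way, each match lying on the strand opposite to the gene.
Nupr1 (chr7:126625553-126625600, minus strand): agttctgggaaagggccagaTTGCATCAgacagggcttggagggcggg
Trib3 (chr2:152344019-152344066, minus strand): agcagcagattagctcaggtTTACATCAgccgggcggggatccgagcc
Chac1 (chr2:119351029-119351076, plus strand): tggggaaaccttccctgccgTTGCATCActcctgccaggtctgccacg
Vldlr (chr19:27216800-27216847, plus strand): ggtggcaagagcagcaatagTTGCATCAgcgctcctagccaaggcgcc

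The whole window of Herpud1, an ER membrane protein of the degradation machinery, holds the C/EBP-ATF element upstream of ERSE-II, both in capitals.
Herpud1 (chr8:94386179-94386478, plus strand): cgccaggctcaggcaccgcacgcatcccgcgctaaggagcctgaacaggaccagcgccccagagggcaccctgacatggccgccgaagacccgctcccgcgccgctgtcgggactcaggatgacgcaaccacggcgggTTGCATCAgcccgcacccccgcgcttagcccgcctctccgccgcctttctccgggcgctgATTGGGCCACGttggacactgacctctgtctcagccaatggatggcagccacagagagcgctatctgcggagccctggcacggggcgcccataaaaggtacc

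In diapaused ICM against ICM, 5 of 8 tested ATF4-branch members rose and 0 fell, with a median log2 fold change of 1.13. Of 17 ER chaperones and foldases 1 rose and 0 fell, with a median of -0.17, and the median of all tested genes was 0.00. Over all 36 members 8 rose and 0 fell, where 7.52% of all 17698 tested genes rose and 5.81% fell (limma's moderated test on log2(value + 1), adjusted p under 0.05). The 8 that rose were Atf5, Ddit3, Nupr1, Cebpg, Ppp1r15a, Xbp1, Dnajc3 and Sel1l. Atf5 and Ddit3 kept their calls in all 14 alternative fits. By ranges, 13 members had dICM libraries wholly above ICM and 2 wholly below, where 16.4% and 14.4% of all tested genes did. When only these libraries were fitted without epiblast, 4 of 36 were called, and 3 were called when the filter on low values was dropped. Leaving out 1 library at a time gave 3 to 5.

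**Figure D1:**
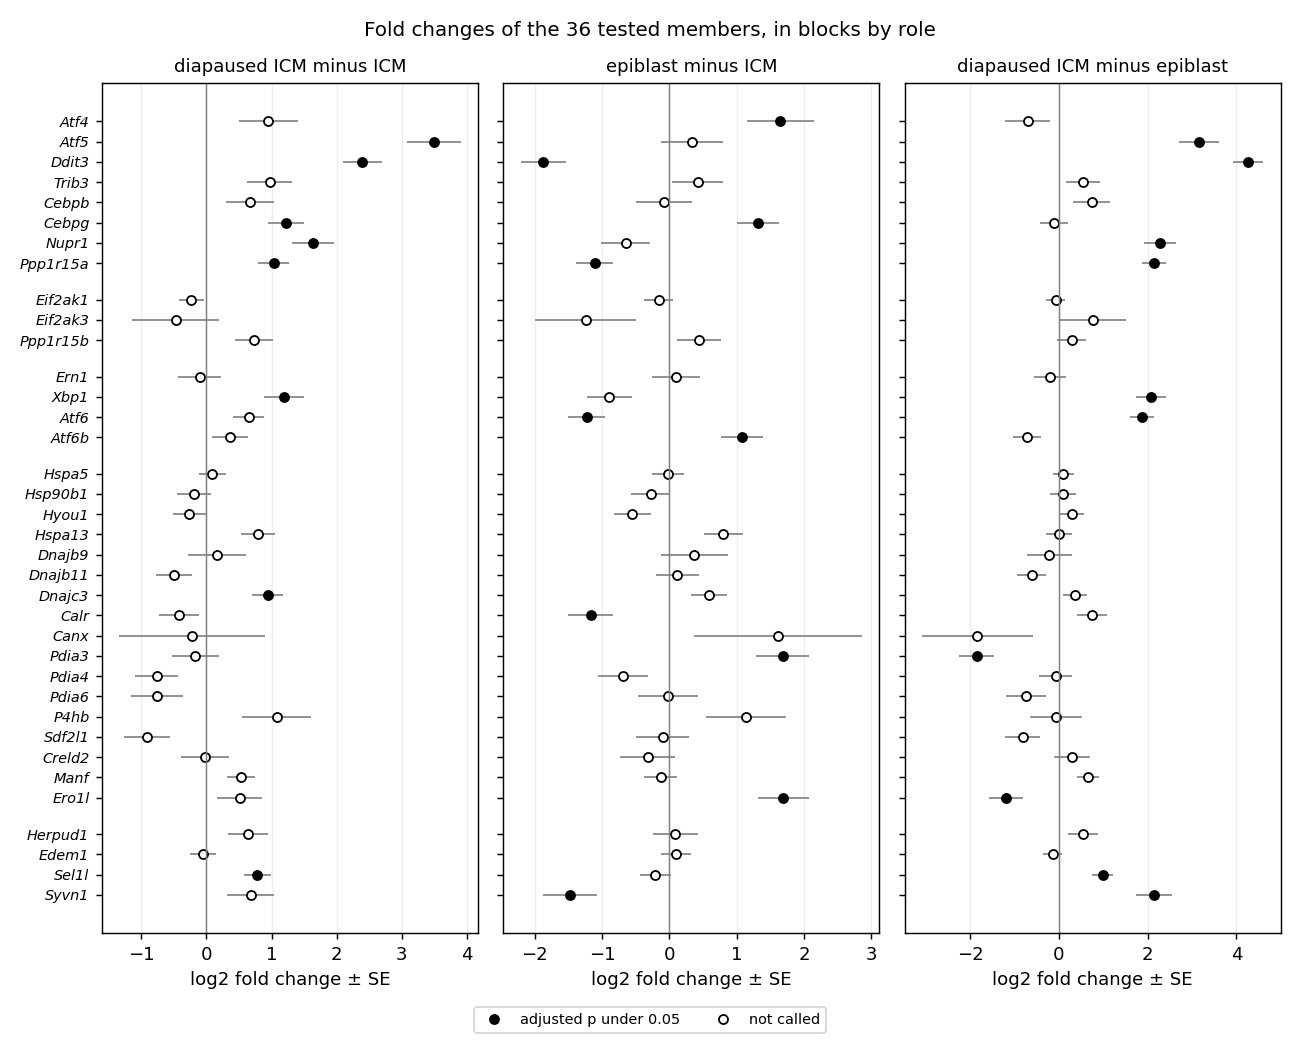
Log2 fold changes of the 36 tested members in the 3 comparisons, in blocks by role (ATF4 branch, eIF2α kinases and phosphatase cofactor, IRE1 and ATF6 arms, ER chaperones and foldases, ER-associated degradation). Points are fold changes on log2(value + 1), lines ± SE, and filled points have an adjusted p under 0.05; in the left panel all 8 ATF4-branch points lie above 0, while the 17 chaperones and foldases lie on both sides of it.

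On the log2(value + 1) scale, Atf5 and Ddit3 had the highest fold changes among the 36 members in diapaused ICM against ICM. By the ratio of group means the low genes Trib3 (19.6) and Cebpb (12.9) stood above Atf5 (12), and Ddit3 was at 5.6. Atf5, a relative of ATF4 that is likewise controlled at translation, was at 10.7, 3.35 and 9.33 in the ICM libraries, at 115, 58.2 and 107 in diapaused ICM and at 10.1 and 8.26 in epiblast. All 3 diapaused libraries stood above every other library, and Atf5 was 12-fold higher by group means than in ICM (log2 fold change 3.49 ± 0.41, SE; adjusted p = 9.4e-04). Ddit3 encodes CHOP, a factor linked to cell death under lasting stress. It was at 8.91, 8.01 and 15.6 in ICM, at 83.5, 47.7 and 51.3 in diapaused ICM and at 2.13 and 2.1 in epiblast. The 3 groups of Ddit3 did not overlap, with the order epiblast, ICM, diapaused ICM. It rose by 2.39 ± 0.30 on the log2 scale in diapaused ICM against ICM (adjusted p = 0.0014) and fell by 1.87 in epiblast against ICM (SE 0.34, adjusted p = 0.0044). Diapaused ICM held 28.8-fold the epiblast mean of Ddit3 (4.27 ± 0.34, adjusted p = 7.4e-05).

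Atf4 itself followed another order by group mean. Its levels were 44.1, 17.4 and 57.3 in ICM, 75.1, 55.4 and 80 in diapaused ICM, and 166 and 77 in epiblast. ICM and diapaused ICM overlapped, and their difference did not pass the test (0.95 ± 0.45, adjusted p = 0.21; 95% interval -0.07 to 1.97). Diapaused ICM and epiblast also overlapped, and diapaused ICM against epiblast did not pass (-0.70 ± 0.50, adjusted p = 0.3). Epiblast was above ICM (1.65 ± 0.50, adjusted p = 0.037), a call that was lost without either epiblast library (adjusted p = 0.27 without Epi 1 and 0.053 without Epi 2), without ICM 1 (0.057), without ICM 2 (0.061), or without dICM 3 (0.053). It was also lost without the filter on low values (0.14) and with only the groups compared (0.073). Atf4 and Atf5 thus differed in where they were highest by group mean, Atf4 in epiblast at 122 ± 63 (SD, n = 2) and Atf5 in diapaused ICM at 93.4 ± 30.7 (SD, n = 3).

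Cebpg, which encodes a dimer partner of ATF4, was at 2.06, 1.94 and 3.12 in ICM, 8.1, 5.4 and 6.98 in diapaused ICM, and 10.2 and 5.18 in epiblast. Both other groups stood above ICM without overlap (1.22 ± 0.28, adjusted p = 0.021, and 1.32 ± 0.31, adjusted p = 0.013), and they share their ICM libraries. The call for diapaused ICM was lost without ICM 1 (0.075), ICM 2 (0.058), dICM 1 (0.065) or dICM 3 (0.059), and that for epiblast without Epi 1 (0.13); the former was also lost without the filter on low values (0.09). Nupr1, a small stress-induced chromatin protein, was at 2.3, 0.601 and 2.01 in ICM, 5.32, 6.01 and 9.9 in diapaused ICM, and 0.649 and 0.556 in epiblast. Every diapaused library of Nupr1 was above every other library (1.64 ± 0.32 against ICM, adjusted p = 0.012; 2.29 ± 0.36 against epiblast, adjusted p = 0.0019). Its call against ICM was lost when the filter on low values was dropped (0.073). Cebpb, another bZIP factor, stayed under 1.5 everywhere, at 1.31 and 1.06 in dICM 1 and dICM 3 and 0.00194 in dICM 2.

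Feedback genes of the branch differed in level. Ppp1r15a encodes GADD34, the inducible cofactor that leads a phosphatase to eIF2α. It was at 2.52, 3.19 and 3.27 in ICM, 4.87, 8.51 and 8.69 in diapaused ICM, and 0.922 and 0.759 in epiblast. The 3 groups of Ppp1r15a did not overlap and had the same order as those of Ddit3. It rose in diapaused ICM against ICM (1.03 ± 0.24, adjusted p = 0.023) and fell in epiblast against ICM (-1.11 ± 0.27, adjusted p = 0.015). The first of these calls was lost without ICM 1 (0.086), ICM 3 (0.054), dICM 2 (0.074) or dICM 3 (0.071), and the second without Epi 1 (0.081) or Epi 2 (0.095). The first was also lost without the filter on low values (0.082) and with only the groups compared (0.051). Trib3, a pseudokinase that restrains ATF4 and CHOP, was at 0.00513, 0.159 and 0.00902 in ICM and at 0.539, 1.08 and 1.76 in diapaused ICM, without overlap, and did not pass the test (0.97 ± 0.34, adjusted p = 0.097). Chac1, for an enzyme that degrades glutathione, was at 0.313, 0.715 and 1.54 in diapaused ICM and at 0.0376 to 0.387 in the other 5 libraries. Vldlr, for a lipoprotein receptor, was between 0.0157 and 0.969 in all 8. Both were too low to test, as were Eif2ak2 and Eif2ak4.

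**Figure D2:**
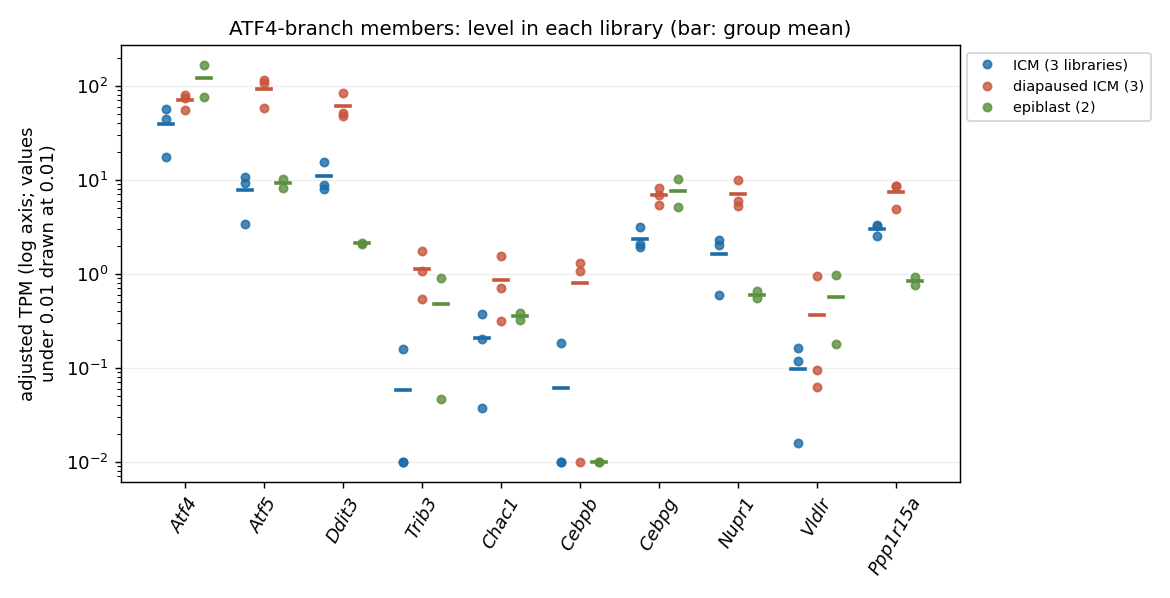
Adjusted TPM of the 10 ATF4-branch members in each library on a log axis, with a bar at each group mean. The diapaused ICM libraries of Atf5 (58.2 to 115), Ddit3 (47.7 to 83.5), Nupr1 (5.32 to 9.9) and Ppp1r15a (4.87 to 8.69) lie above all other libraries, while Atf4 is highest by mean in epiblast.

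Of the 5 members grouped as eIF2α kinases and phosphatase cofactor, 3 were tested (Eif2ak1, Eif2ak3 and Ppp1r15b). None of these passed the test in any of the 3 comparisons. A count over 3 genes is no result about this group, because most of all tested genes were not called either. For diapaused ICM against ICM, the test called 7.52% of all tested genes up and 5.81% down. These shares came to 16.7% and 13.3% for epiblast against ICM, and to 16.0% and 18.6% for diapaused ICM against epiblast. Eif2ak1, which encodes the heme-regulated kinase HRI, was at 4.57 to 5.05 in ICM, 3.14 to 4.73 in diapaused ICM and 4.04 and 4.29 in epiblast (diapaused ICM against ICM -0.23 ± 0.19, 95% interval -0.67 to 0.21). Eif2ak3, which encodes PERK, was uneven within groups, at 4.54, 15.6 and 5.92 in ICM and at 18.6, 2.19 and 2.84 in diapaused ICM, so a single library of each group stood far above the others. Its 95% interval for diapaused ICM against ICM ran from -1.98 to 1.04. Eif2ak2, for the RNA-sensing kinase PKR, stayed at 0.93 or below, and Eif2ak4, for the amino acid sensor GCN2, passed 1 only in dICM 3, at 2.11. Ppp1r15b, the constitutive counterpart of Ppp1r15a, was at 8.46, 7.64 and 10.1 in ICM and 13.2, 10.8 and 23.8 in diapaused ICM, without overlap (0.73 ± 0.29, adjusted p = 0.14).

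Of the IRE1 and ATF6 arms, Xbp1 and Atf6 had their highest levels in diapaused ICM and their lowest in epiblast. Xbp1, for the transcription factor activated by IRE1, was at 4.7, 4.66 and 11.2 in ICM, 14, 16.1 and 17.1 in diapaused ICM, and 2.9 and 3 in epiblast, and the 3 groups did not overlap. It rose in diapaused ICM against ICM (1.19 ± 0.31, adjusted p = 0.034). That call was lost in 7 of 8 fits that left out 1 library (0.062 to 0.12), with the exception of ICM 3, which had the highest ICM value. It was also lost without the filter on low values (0.13) and with only the groups compared (0.07). Against epiblast the difference of Xbp1 was 2.08 ± 0.34 (adjusted p = 0.0022), while epiblast against ICM (-0.89 ± 0.34, adjusted p = 0.077) passed only after quantile normalization (0.033) or rescaling without abundant genes (0.04). Atf6, for the ER-anchored factor released by cleavage, was at 4.01, 4.58 and 3.52 in ICM, 5.85, 5.54 and 9.84 in diapaused ICM, and 1.38 and 0.932 in epiblast, again without overlap of the 3 groups. Its difference between diapaused ICM and ICM, 0.65 ± 0.24, did not pass (adjusted p = 0.12). Atf6 fell in epiblast against ICM (-1.23 ± 0.27, adjusted p = 0.011; 0.053 without Epi 1 and 0.087 without Epi 2) and was higher in diapaused ICM than in epiblast (1.87 ± 0.27, adjusted p = 0.0013). Its paralog Atf6b went the other way, at 1.89 to 4.41 in ICM and 9.57 and 6.23 in epiblast (1.08 ± 0.31, adjusted p = 0.031), a call lost without ICM 1 (0.057), ICM 2 (0.064), Epi 1 (0.22) or Epi 2 (0.06), without the filter (0.093) or with only the groups compared (0.06). Ern1, which encodes IRE1α, lay between 0.132 and 1.43 in all libraries.

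Of the 17 ER chaperones and foldases, 16 were not called in diapaused ICM against ICM, 14 in epiblast against ICM and 15 in diapaused ICM against epiblast. Of all tested genes, 7.52% were higher and 5.81% lower in the first comparison, 16.7% and 13.3% in the second, and 16.0% and 18.6% in the third. The share of chaperones and foldases that rose in diapaused ICM against ICM, 5.88%, was near that of all genes. Hspa5 encodes BiP, the Hsp70 of the ER and the classic target of ATF6. It was at 202, 190 and 203 in ICM, 193, 186 and 261 in diapaused ICM, and 212 and 181 in epiblast. The groups of Hspa5 overlapped in every comparison, and the difference between diapaused ICM and ICM was 0.09 ± 0.21 (95% interval -0.39 to 0.57). Hsp90b1, for the Hsp90 of the ER, was the most abundant member in 4 of 8 libraries, with Canx above it in the other 4. It was at 784, 625 and 705 in ICM, 580, 450 and 882 in diapaused ICM, and 582 and 570 in epiblast (diapaused ICM against ICM -0.19 ± 0.26, interval -0.79 to 0.40). Hyou1, an ER nucleotide exchange factor, lay between 9.21 and 19, and Creld2, induced by ER stress, between 15.1 and 40.1. Dnajb9, an ER Hsp40, was lower, at 0.118 to 2.39. None of these 5 was called in any comparison.

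Dnajc3, which encodes the cochaperone p58IPK, was the single chaperone gene that rose in diapaused ICM. It was at 5.3, 4.51 and 5.02 in ICM, 8.25, 9.47 and 14.3 in diapaused ICM, and 9.2 and 6.76 in epiblast (0.94 ± 0.24 against ICM, adjusted p = 0.034). That call was lost in 7 of 8 fits without 1 library (0.054 to 0.083), all but the fit without dICM 1, and also without the filter (0.091) and with only the groups compared (0.056). Dnajc3 carries an ERSE in its window, as do Hspa5, Hsp90b1, Calr, Canx, Creld2 and Pdia6, which were not called in this comparison. Manf, for a secreted ER stress factor, was at 46.5, 59.2 and 43.6 in ICM and 74.4, 75.4 and 65.1 in diapaused ICM, without overlap (0.53 ± 0.22, adjusted p = 0.16). Hspa13, an Hsp70 relative, was at 1.01, 0.704 and 0.726 in ICM and 3.36, 1.92 and 1.42 in diapaused ICM, also without overlap (0.79 ± 0.26, adjusted p = 0.084).

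Other foldases stood lower in diapaused ICM without passing the test. Sdf2l1, a BiP cofactor, was at 9.48, 8.9 and 14.1 in ICM and 7.49, 3.68 and 4.94 in diapaused ICM (-0.91 ± 0.35, adjusted p = 0.13). Pdia4, a protein disulfide isomerase, was at 24.4, 22 and 23.1 in ICM and 8.47, 13.9 and 19.5 in diapaused ICM (-0.76 ± 0.33, adjusted p = 0.18). In both genes all diapaused libraries were below all ICM libraries. Over the 17 chaperones and foldases 3 had diapaused libraries wholly above ICM and 2 wholly below, where 16.4% and 14.4% of all tested genes did. Pdia6 (-0.76 ± 0.40) and Dnajb11 (-0.50 ± 0.28), for an ER Hsp40, overlapped between the groups. P4hb, the β subunit of prolyl hydroxylase and itself a disulfide isomerase, was at 91.2 in dICM 2 and at 20.3 and 29.9 in the others (1.08 ± 0.53 against ICM, adjusted p = 0.23).

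In epiblast against ICM, Pdia3 and Ero1l rose and Calr fell. Pdia3, the disulfide isomerase that works with calnexin and calreticulin, was at 26.8, 24 and 41.4 in ICM, 18.1, 24.5 and 41.3 in diapaused ICM, and 129 and 74.2 in epiblast. It rose in epiblast against ICM (1.68 ± 0.40, adjusted p = 0.015; 0.14 without Epi 1 and 0.064 without the filter) and was lower in diapaused ICM than in epiblast (-1.85 ± 0.40, adjusted p = 0.0085; 0.089 without Epi 1). Ero1l, the oxidase that recharges disulfide isomerases, was at 1.42, 1.77 and 0.665 in ICM, 2.28, 0.994 and 3.9 in diapaused ICM, and 6.38 and 6.09 in epiblast (1.69 ± 0.38 against ICM, adjusted p = 0.011; 0.086 without Epi 1, 0.068 without Epi 2 and 0.057 without the filter). Its difference between diapaused ICM and epiblast (-1.19 ± 0.38, adjusted p = 0.039) was lost in 5 of 8 fits without 1 library, namely ICM 1, dICM 1, dICM 2, Epi 1 and Epi 2 (0.057 to 0.17). It was also lost with a pseudocount of 0.1 (0.07), no filter on low values (0.14), rescaling (0.072), only the groups compared (0.068) and the replicate block (0.075). Calr, which encodes the lectin chaperone calreticulin, was at 261, 188 and 271 in ICM, 160, 142 and 241 in diapaused ICM, and 135 and 81.2 in epiblast. Calr fell in epiblast against ICM (-1.17 ± 0.33, adjusted p = 0.028), a call lost without ICM 1 (0.076), ICM 3 (0.076) or Epi 2 (0.19), or without the filter (0.083). Against epiblast, diapaused ICM passed for Calr only after quantile normalization (0.034) or rescaling (0.047).

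Canx, which encodes calnexin, the membrane-bound counterpart of calreticulin, was uneven within ICM and within diapaused ICM by more than a factor of 10. It was at 143 and 93.1 in ICM 1 and ICM 2 and at 1338 in ICM 3. It was at 114 and 88.3 in dICM 1 and dICM 2, at 1110 in dICM 3, and at 752 and 852 in epiblast. The intervals (-2.76 to 2.32 for diapaused ICM against ICM) are too wide to place Canx, and with the replicate number as a block the test called epiblast above ICM (adjusted p = 0.0016). The 17 chaperones and foldases together held 0.174%, 0.191% and 0.307% of the summed values in ICM and 0.11%, 0.109% and 0.308% in diapaused ICM, and 0.189% and 0.2% in epiblast. Without Canx, a choice made after its values were seen, they held 0.159%, 0.178% and 0.165% in ICM, 0.101%, 0.101% and 0.188% in diapaused ICM, and 0.123% and 0.117% in epiblast. dICM 3 was thus above, and the other diapaused libraries below, every ICM library.

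**Figure D3:**
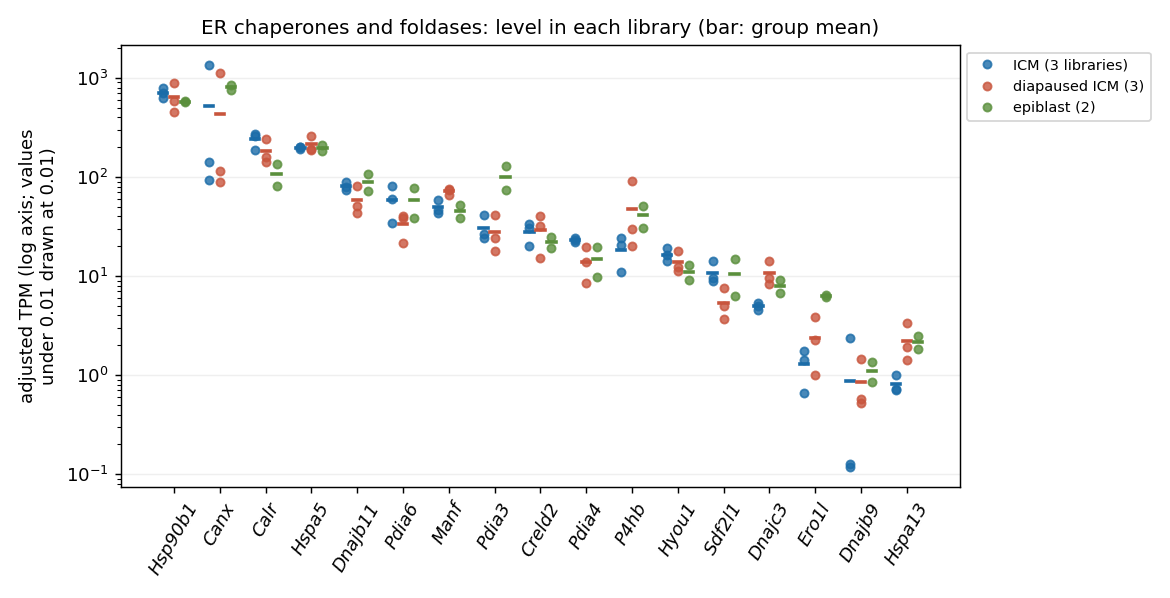
Adjusted TPM of the 17 ER chaperones and foldases in each library on a log axis, ordered by ICM mean, with a bar at each group mean. ICM and diapaused ICM overlap for 12 of the 17 genes, among them Hspa5 at 181 to 261 over all 8 libraries, while Canx splits within ICM and within diapaused ICM. Of all tested genes, 16.4% had diapaused ICM wholly above ICM and 14.4% wholly below, so overlap was about as common among all genes.

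Of the 4 genes of ER-associated degradation, Sel1l and Syvn1 were higher in diapaused ICM than in epiblast, and Sel1l also rose against ICM. Sel1l, the adaptor of the HRD1 ubiquitin ligase, was at 23.3, 17.3 and 19 in ICM, 31, 35.5 and 37.6 in diapaused ICM, and 18.4 and 15.6 in epiblast. Every diapaused library was above every other library of Sel1l. It rose against ICM (0.78 ± 0.21, adjusted p = 0.039), a call lost in each of the 8 fits without 1 library (0.057 to 0.1), with only the groups compared (0.057) and with the replicate block (0.068), and against epiblast (0.99 ± 0.23, adjusted p = 0.012; 0.077 without Epi 2). Syvn1, which encodes HRD1 itself, was at 8.67, 5.94 and 12.5 in ICM, 20.4, 8.42 and 17.4 in diapaused ICM, and 3.09 and 2.01 in epiblast. Syvn1 fell in epiblast against ICM (-1.47 ± 0.40, adjusted p = 0.026) and was higher in diapaused ICM than in epiblast (2.14 ± 0.40, adjusted p = 0.0045). The former call was lost without ICM 1 (0.06), ICM 3 (0.073), Epi 1 (0.091) or Epi 2 (0.16) or without the filter (0.1), the latter without Epi 2 (0.05). Herpud1 was at 0.777, 0.314 and 1.79 in ICM and 1.79, 2.35 and 1.64 in diapaused ICM (0.64 ± 0.31, adjusted p = 0.22), and Edem1, a mannosidase-like factor, lay between 2.37 and 3.73 in all libraries.

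Against epiblast, 8 of 36 members were higher and 2 lower in diapaused ICM, where 16.0% of all tested genes were higher and 18.6% lower (2830 and 3283 genes, and 3104 and 2380 after rescaling without abundant genes). By ranges, 11 members had dICM libraries wholly above epiblast and 4 wholly below (27.3% and 34.1% of all tested genes). The 4 ATF4-branch members among the 8 were Atf5 (3.16 ± 0.46, adjusted p = 0.0012), Ddit3, Nupr1 and Ppp1r15a (2.15 ± 0.27, adjusted p = 5.9e-04), and each kept its call in all 14 alternatives. The remaining 4 were Xbp1, Atf6, Sel1l and Syvn1, and the 2 that were lower were Pdia3 and Ero1l. In epiblast against ICM 5 members rose and 5 fell, 13.9% each, where 16.7% of all tested genes rose and 13.3% fell (2963 and 2361 genes, and 2068 and 2701 after the same rescaling), so the shares of members were near those of all genes. Epiblast libraries lay wholly above ICM for 9 members and wholly below for 11 (33.9% and 25.0% of all tested genes). Without Epi 1, 0 members were higher and 2 lower in that comparison, and without Epi 2, 2 were higher and 1 lower. The 3 comparisons share libraries pairwise and are not independent.

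The gap between the ATF4 branch and the chaperones can be read in each library. Relative to the ICM mean of each gene on the log2(value + 1) scale, the median of the 8 ATF4-branch members was 0.05, -0.26 and 0.28 in ICM, 1.23, 1.12 and 1.34 in diapaused ICM, and -0.05 and 0.07 in epiblast. For the 17 chaperones and foldases it was 0.07, -0.19 and 0.19 in ICM, -0.27, -0.38 and 0.39 in diapaused ICM, and 0.39 and -0.13 in epiblast. The ATF4-branch median exceeded the chaperone median by 1.5, 1.5 and 0.94 in the diapaused libraries, and the difference was -0.44 and 0.19 in epiblast. In ICM it was -0.03, -0.07 and 0.09, but there it lies near 0 by construction, since ICM is the reference. These medians are descriptions of genes that share libraries, and no test was made of them. The chaperone median of diapaused ICM against ICM had no stable sign: -0.17 with all libraries became 0.11 without ICM 3, 0.09 without dICM 1 and 0.03 without dICM 2. The ATF4-branch median in the same comparison, 1.13, was 1.05 to 1.33 in the fits without 1 library and 2.07 with a pseudocount of 0.1.

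**Figure D4:**
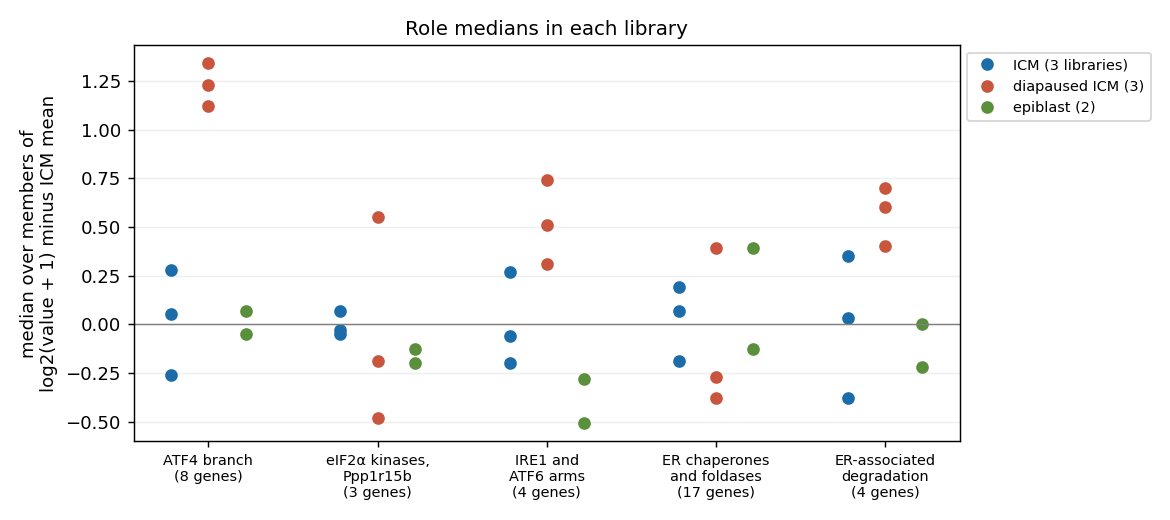
Median over the tested members of each role of log2(value + 1) minus the gene's ICM mean, 1 point per library. The diapaused ICM libraries of the ATF4 branch lie at 1.12 to 1.34, above every other library, while those of the ER chaperones lie at -0.38 and -0.27, below every other library, and at 0.39, level with the higher epiblast library.

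Other genes of the pathway were read from lists. Of 30 tested ATF4 targets outside the members, 8 rose and 1 fell in diapaused ICM against ICM (26.7% and 3.33%, where 7.52% and 5.81% of all tested genes did), with a median of 0.37. The amino acid transporter gene Slc38a2 (4.03), the stress factor gene Atf3 (2.48) and Asns, for asparagine synthetase (2.01), had the smallest adjusted p. Asns was at 34.3, 35.1 and 49.1 in ICM, 181, 155 and 147 in diapaused ICM, and 12 and 11.9 in epiblast, the same order of groups as Ddit3. The target that fell, Psat1 of serine synthesis, was at 122, 128 and 93.4 in ICM and 42.9, 37.8 and 65.8 in diapaused ICM (-1.24, adjusted p = 0.015), and was named after its values were seen. Also named in that way, Slc7a11, the cystine transporter gene, was at 8.97, 9.43 and 9.71 in ICM and 8.32, 8.64 and 10.1 in diapaused ICM. Fgf21 and Gdf15, secreted markers of the same response also named after their values were seen, were at or below 0.00505 and 0.0277 in all 8 libraries. In epiblast against ICM, 7 of the 30 targets rose and 4 fell (23.3% and 13.3%, where 16.7% and 13.3% of all tested genes did), Slc38a2 (2.80) among the former and Asns (-1.63) and Sars (-2.25), for seryl-tRNA synthetase, among the latter.

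Of 11 genes for eIF2, eIF2B and GCN2 regulators, 1 rose and 1 fell in diapaused ICM against ICM, 9.09% each. Beside the 7.52% and 5.81% of all tested genes, the counts of this list and of the 4 small lists that follow are no result about the lists. Impact, an inhibitor of GCN2 activation, was at 1.63, 1.79 and 0.966 in ICM and 9.21, 8.01 and 9.39 in diapaused ICM (2.01, adjusted p = 4.7e-04), and Eif2b3 fell (-0.78, adjusted p = 0.037; lost in 7 of 8 fits without 1 library, 0.052 to 0.11, all but that without ICM 2, and with only the groups compared, 0.064). Of 22 genes of the ER translocon and signal peptidase, 0 rose and 2 fell, namely Sec61b (-1.07, adjusted p = 0.011) and Srp14 (-0.99, adjusted p = 0.025; lost in 4 of 8 fits, those without ICM 1, ICM 3, dICM 2 or dICM 3, 0.057 to 0.082, and without the filter, 0.053). Of 15 genes of the oligosaccharyltransferase and glycoprotein folding cycle 1 rose, Uggt2 (1.68), and 1 fell, Rpn2 (-1.25; lost in 7 of 8 fits, 0.057 to 0.11, all but that without ICM 2, without the filter, 0.11, and with only the groups compared, 0.057). Of 21 other foldases, isomerases and cochaperones 1 rose and 2 fell. The riser was the cyclophilin gene Ppic, at 6.69, 1.32 and 11.7 in ICM and 38, 45.6 and 49.4 in diapaused ICM (adjusted p = 0.0077; 0.069 without the filter). Of 5 genes of ATF6 processing and the CREB3 family, Creb3 rose (1.48, adjusted p = 0.013; 0.069 without the filter) and 0 fell.

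Markers of other cell types and genes that respond to handling moved with the same groups, and their part in the results was not tested. Summed levels below are over all listed genes in the file, untested ones included. Of all tested genes, 7.52% rose and 5.81% fell in diapaused ICM against ICM. Beside these shares, the counts of the trophectoderm and epiblast lists, of 10 tested genes each, are no result about the lists. Of 19 tested primitive endoderm markers 13 rose and 1 fell in diapaused ICM against ICM, and their summed level was 844 to 1167 in the ICM libraries, 2547 to 2917 in the dICM libraries, and 111 and 113 in epiblast. The marker that fell was Gata6, at 3.7, 3.33 and 5.3 in ICM and 1.42, 1.55 and 2.02 in diapaused ICM. Pdgfra was at 24.2 to 32.8 in ICM, 33.5 to 41.9 in diapaused ICM, and 0.121 and 0.114 in epiblast. Of 10 tested trophectoderm markers 2 rose and 1 fell. The risers were Fabp3 and Gata3 (adjusted p = 0.0094 for Gata3, and 0.07 without the filter). Gm2a fell (adjusted p = 0.027, and 0.072 without the filter). The summed level was 71.5 to 140 in ICM, 593 to 790 in diapaused ICM and 69 and 83.8 in epiblast. In diapaused ICM Fabp3 was at 544 to 664 and Cdx2 at 0.0995 to 0.901. Krt18 was at 121 in dICM 3 and at 10.7 to 31 in the other 7 libraries. Krt18, Cdx2 and Gata6 were named after their values were seen, as was Ptprc below. Of 7 tested visceral endoderm markers 3 rose and 1 fell, with sums of 26.7 to 38.5 in ICM, 566 to 583 in diapaused ICM and 307 and 422 in epiblast, and Rhox5 was at 552 to 568 in diapaused ICM. Of 3 tested blood and immune cell markers 2 rose, Laptm5 and Cd68, with sums of 5.45 to 11.2 in ICM, 49 to 136 in diapaused ICM and 39.7 and 6.56 in epiblast, while Ptprc was at 0.399 or below in all 8 libraries. Of 10 epiblast markers 0 rose and 2 fell, and Fgf5 was at 145 and 68.9 in the epiblast libraries and at 1.07 or below in the others. Of 13 tested genes of the response to dissociation and heat 5 rose and 2 fell, the latter Hspa8 and Hsph1. The summed level of this list was 5038, 3338 and 3513 in ICM, 2106, 2081 and 2166 in diapaused ICM, and 2121 and 2136 in epiblast. That sum weighs abundant genes most. It went the other way from the median log2 fold change in diapaused ICM against ICM, 1.10 over the 13 tested genes. Egr1 was at 3.87, 20.1 and 5.28 in ICM, 179, 134 and 165 in diapaused ICM, and 1.4 and 0.386 in epiblast. Btg2, Jun (adjusted p = 0.0068) and Fos (0.0095) also rose in diapaused ICM against ICM. Without the filter the calls of Jun (0.06) and Fos (0.058) were lost. Column sums lay between 720674 (ICM 2) and 1179026 (dICM 1), mitochondrially encoded genes held 8.45% to 11.7% of them in ICM, 5.68% to 7.91% in diapaused ICM and 2.01% and 2.03% in epiblast, without overlap, and 14634 to 15130 genes per library reached 1. The values keep no read counts, so the depth is unknown.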

How the data were processed

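RNA-seq values for 3 ICM, 3 diapaused ICM and 2 epiblast libraries were taken as deposited; the RNA was amplified with the WT-Ovation Pico kit, per the labels' protocols. Per the file headers they are adjusted TPM, a signal per gene; how the authors adjusted it is not given here, and since column sums differ it was treated as signal. Per the submitters' processing notes the tools were Bowtie 0.12.5 and DESeq and the build mm9, with no role stated; no source used here names the quantifier, the annotation or the use of strand. Read counts were not used here, so precision rests on the spread between pools, and the labels call the pools biological replicates.

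Genes at 1 or more in at least 2 libraries (17698 of 38924) were fitted as log2(value + 1), which understates changes of low genes, with limma 3.58.1 in R 4.3.3: group means over 8 libraries, trended prior (residual degrees of freedom 5, prior 3.97), two-sided moderated tests, Benjamini-Hochberg adjustment over all tested genes, threshold 0.05. The test was also run on simulated data drawn from normal distributions, with changes placed only in genes above a minimum level. That run does not cover low genes or uneven libraries such as those of Canx. Intervals are 95% from that fit. The unit assumed when the tests were fixed was TPM; the test was kept.

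All 40 members could be named. Symbols were matched exactly, and a repeated symbol would take its highest row. From each of 13 further lists (220 genes, 219 in the file) up to 3 genes of smallest adjusted p past the threshold could be named in each comparison. Psat1, Slc7a11, Fgf21, Gdf15, Gata6, Cdx2, Krt18 and Ptprc fell outside this rule and were named after their values were seen. The result of 1 list is not reported here. Members and lists were chosen with earlier results of these data known. Promoter windows came from RefSeq (GRCm38.p6) and were not matched to mm9. Alternatives were a pseudocount of 0.1, no filter, quantile normalization, rescaling without the 303 genes above 0.1% of any library's sum, only the groups compared, a replicate block, and leaving out each library.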

Additional observations from a re-analysis of the deposited data

How the results depend on the processing

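In diapaused ICM against ICM, 8 members were called higher and 0 lower. Without the filter on low values 3 were higher (2 of the ATF4 branch, 0 chaperones), among 675 higher and 603 lower of all genes in place of 1331 and 1029. With only the groups compared 4 members and 0 chaperones were higher, among 1047 higher and 799 lower of all genes. Without 1 library 3 to 5 members were higher (3 to 5 of the ATF4 branch, 0 to 1 chaperones), 0 lower (0 of the ATF4 branch and 0 chaperones), and 793 to 1105 and 604 to 1108 of all genes. In epiblast against ICM, 5 members were higher and 5 lower. Without the filter 1 was higher (1 of the ATF4 branch, 0 chaperones) and 3 lower (0 chaperones), among 2433 higher and 1613 lower of all genes. With only the groups compared 1 ATF4-branch member was higher, among 2634 higher and 2290 lower of all genes. Without 1 library 0 to 6 members were higher (0 to 2 of the ATF4 branch, 0 to 3 chaperones) and 1 to 6 lower (1 to 3 and 0 to 1), with 1007 to 2849 and 1001 to 2388 of all genes. In diapaused ICM against epiblast, 8 members were higher and 2 lower, both chaperones or foldases. A pseudocount of 0.1, no filter, rescaling and only the groups compared each left 1 lower, a foldase, and 1 foldase or chaperone became higher after quantile normalization and 2 after rescaling. Without 1 library 6 to 9 members were higher (4 to 5 of the ATF4 branch, 0 chaperones) and 0 to 2 lower (0 of the ATF4 branch, 0 to 2 chaperones), with 1370 to 2947 and 1328 to 3368 of all genes. The smaller sets had fewer samples or, without the filter, more genes; otherwise the cause was not tested.

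Rescaling turned the split of all genes from 2963 higher and 2361 lower to 2068 and 2701 in epiblast against ICM, and from 2830 and 3283 to 3104 and 2380 in diapaused ICM against epiblast. It moved the median of all genes from 0.14 to 0.01 and from -0.11 to -0.01. The ATF4-branch median of diapaused ICM was 1.13 against ICM and 1.45 against epiblast, and a pseudocount of 0.1 made these 2.07 and 2.67; without the filter the second was 0.65. The ATF4-branch median of epiblast against ICM, 0.13, was -0.03 with a pseudocount of 0.1, -0.12 without ICM replicate 2 and -0.05 without epiblast replicate 2 (range -0.12 to 0.19); the chaperone median of diapaused ICM against ICM, -0.17, was 0.11, 0.09 and 0.03 without ICM replicate 3 or diapaused ICM replicates 1 or 2, from -0.44 to 0.11 over all such fits and -0.10 without Canx. The other chaperone medians, -0.02 in epiblast against ICM and -0.06 in diapaused ICM against epiblast, lay from -0.13 to 0.39 and from -0.25 to 0.14 without 1 library and so had no stable sign either.

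Replicate numbers are shared between groups, but nothing says that they pair the pools. Correlations of same-numbered deviations between ICM and diapaused ICM were 0.017, 0.103 and 0.131, and 4 of 6 libraries correlated best with their own number. With the replicate block 7 members were higher in diapaused ICM than in ICM, 6 higher and 5 lower in epiblast than in ICM, and 8 and 2 in diapaused ICM against epiblast. The block ended the call of Sel1l against ICM (adjusted p = 0.068) and that of Ero1l in diapaused ICM against epiblast (0.075), and called Canx higher in epiblast than in ICM (0.0016) and in diapaused ICM (0.0012); no other member's call changed.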
